A study of Caenorhabditis elegans with 4 samples.

Results

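The domains described here are stretches of the X chromosome of Caenorhabditis elegans that were occupied by RNA polymerase II in both replicates of a chromatin immunoprecipitation and sequencing (ChIP-seq) experiment on early embryos. The domains were chosen by the positions of the replicate peaks: a domain is a replicate 1 peak on X that overlaps a replicate 2 peak by at least 1 bp. By this rule 444 of the 500 replicate 1 peaks on X were taken, out of 3852 shared domains among the 4343 replicate 1 peaks of the 6 nuclear chromosomes. The embryos were of the wild-type laboratory strain N2, from a mixed population of males and hermaphrodites kept at 20 °C, and no other genotype, strain or treatment was studied. The series holds 2 precipitated samples (replicates 1 and 2) and 2 samples of input DNA whose own data were not used here. Input and precipitated samples had different sonication and library protocols, per the labels. The antibody, 8WG16, is a mouse monoclonal raised against wheat germ polymerase II, and its main target is the C-terminal domain of the largest subunit when that domain is unphosphorylated. Nothing in the labels tells whether separate embryo preparations were used for the replicates. The lists hold positions and no read counts, so the depth is unknown. Positions are in the WormBase WS220 build.

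RNA polymerase II with an unphosphorylated C-terminal domain is the form recruited to promoters, and phosphorylation of that domain accompanies initiation and elongation. In this species hermaphrodites carry a pair of X chromosomes and males a single one. A dosage compensation complex of condensin type binds both X chromosomes of hermaphrodites and lowers their transcription, and it begins to load in the early embryo. The X chromosome is also known to carry few genes with germline functions, and to lack the marked contrast of gene-rich centres and repeat-rich arms that the autosomes show. The sexes were mixed in these samples, so the X chromosomes of hermaphrodites and males cannot be told apart in the peak lists. Gene names and base sequences are not given for the domains, because no genome or annotation of build WS220 was used.

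The rule for the domains rests on the peak lists themselves, so the values that follow describe 2 libraries, and none of them was tested. For 1 group with 2 replicates, the smallest two-sided p that an exact sign-flip test allows is 0.5. The share of replicate 1 peaks with a counterpart was 88.8% on X and 88.7% on the autosomes together (3408 of 3843 peaks), and nothing is read from it. Replicate 2 covered at least 50% of the bases in 435 of 444 domains (98.0%, exact 95% interval 96.2 to 99.1%, counting error only), and the autosomal share was 97.9%. The 3 closest to its edge overlapped replicate 2 by 65 bp (15513762 to 15515079), 78 bp (14451305 to 14453038) and 208 bp (17384070 to 17386409). Just outside it, 3 replicate 1 peaks lay 177 bp (316583 to 317615), 207 bp (4378798 to 4382255) and 236 bp (14096645 to 14097816) from the nearest replicate 2 peak. The 56 replicate 1 peaks on X without a counterpart had a median width of 1318.5 bp, and their median distance to replicate 2 was 5733.5 bp.

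Domains on X were about as wide as those on the autosomes, and fewer per Mb than on every autosome but V, from which their density differed little. The median width was 2254 bp on X (interquartile range 1367.5 to 4180.75 bp, from 824 to 15566 bp), against 2292.5 bp over the autosomes together and 2074 to 2432 bp on single autosomes. This place of X in width depended on the definition. Its median was above all 5 autosomes where each peak had to cover 50% of the other, at 3024.5 bp. The same held with replicate 2 peaks as the domains, at 3406.5 bp. In replicate 2 alone it was below all 5, at 2020 bp. There were 25.1 domains per Mb on X, against 25.2 on chromosome V, 38.1 on IV, 44.0 on II, 52.1 on I and 54.7 on III. Together they covered 1.45 Mb, or 8.18% of X, against 8.40% of V and 11.9 to 18.7% of the other autosomes. The place of X below V in covered bases did not hold in the replicate 2 list alone, where peaks covered 14.5% of X and 12.8% of V, nor in the replicate 2 peaks with a counterpart, which covered 10.0% of X and 9.98% of V. The density near that of V did not hold in replicate 2 alone either, with 44.1 peaks per Mb on X and 36.9 on V. In replicate 1 alone it was 28.2 on X and 29.1 on V.

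Domains up to 3000 bp outnumbered wider ones on X, and those of 5 to 10 kb held the most bases, as on each autosome. Domains up to 1500 bp numbered 137 (30.9% of the domains, 11.6% of their bases), and those over 1500 and up to 3000 bp numbered 135 (19.4% of the bases). On the autosomes together these classes made up 27.0% and 35.2% of the domains. A further 90 domains of over 3000 and up to 5000 bp held 24.01% of the bases, and 69 of over 5000 and up to 10000 bp held 34.1%. On the autosomes together domains of over 5000 and up to 10000 bp held 29.4%, from 25.6% on IV to 33.7% on V. Only 13 domains were wider than 10 kb, which is 2.93% of the X domains (exact 95% interval 1.57 to 4.95%), beside 3.81% of the autosomal ones. They held 10.9% of the domain bases on X and 15.4% on the autosomes. The widest X domain was narrower than the widest of each autosome, which measured 19224 bp on IV to 29687 bp on III, and the autosomes each held more domains than X.

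**Figure D1:**
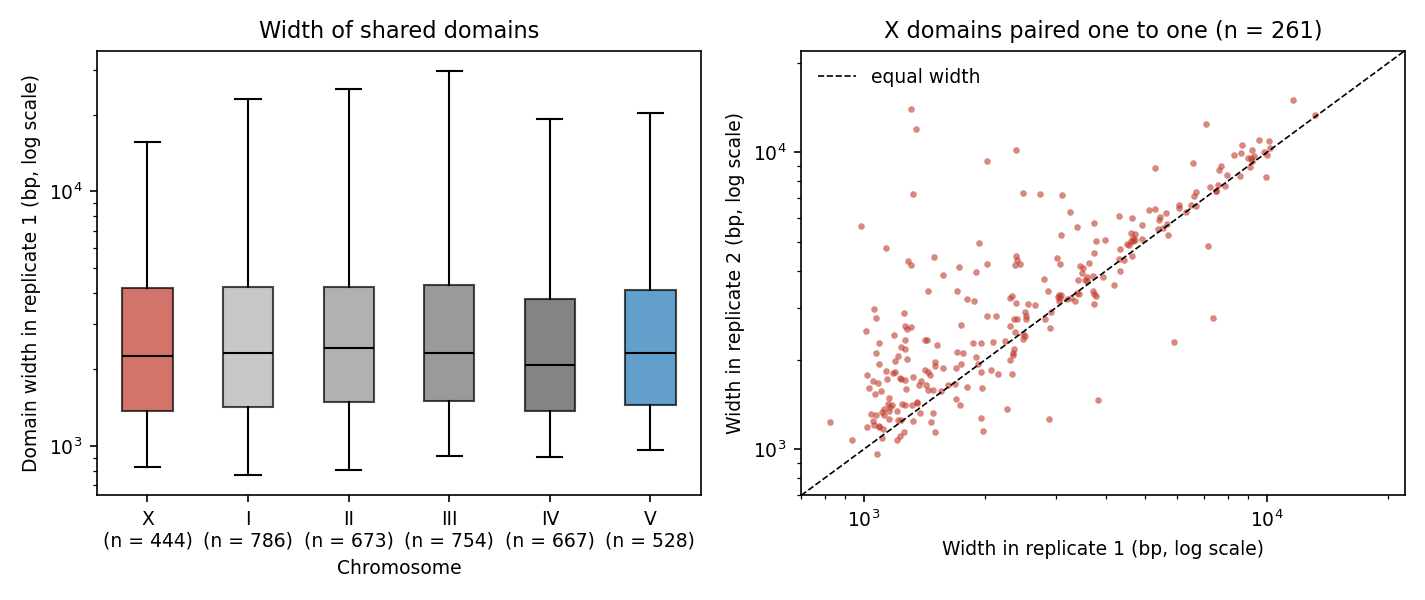
Left, width of the shared domains of each chromosome in replicate 1 (bp, log scale); boxes span the quartiles with the median as a line, and whiskers reach the narrowest and widest domain. Right, width in replicate 2 against width in replicate 1 for the 261 X domains paired singly between the lists (1 point a domain, log scales, dashed line at equal width). The X median of 2254 bp lies among those of the autosomes, and 203 of the 261 points lie above the dashed line.

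The 10 widest X domains lay on both sides of the chromosome and in its middle, and replicate 2 peaks covered 96.9 to 100% of each. The widest ran from 3111412 to 3126977 (15566 bp) in replicate 1, inside a replicate 2 peak from 3111281 to 3129011. Close behind it, a domain from 11026283 to 11041847 measured 15565 bp, and replicate 2 had a peak from 11023508 to 11041802. The third, from 16928880 to 16943196 (14317 bp), was met by a single series-wide peak of 14050 bp and by another that reached past its edge. These 3 domains shared their replicate 2 peak with a neighbouring narrower domain. The fourth, from 5206804 to 5219952 (13149 bp), had nearly the same edges in replicate 2, which placed them 80 bp further left and 155 bp further right. The others measured 12742 bp (from 7950916), 11916 bp (from 15724682), 11635 bp (from 6806194), 11400 bp (from 1845577), 11049 bp (from 7141834) and 10205 bp (from 12844676). In replicate 2, 3 of these 6 were split into a shorter and a longer peak, those from 15724682, 1845577 and 7141834. None of the 13 domains wider than 10 kb lay in a cluster as defined below, beside 24.3% of all X domains. No such share is given for wide autosomal domains, and nothing is read from so few. They were not all isolated, since the widest lay 69 bp from its next neighbour.

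At the other end of the range, the narrowest domain ran from 8703258 to 8704081 (824 bp), and replicate 2 listed 1240 bp there. A domain from 7005421 to 7006356 (936 bp) was matched by a replicate 2 peak of 1079 bp. The third, from 4867714 to 4868699 (986 bp), lay within a replicate 2 peak of 5671 bp. Replicate 2 thus gave 2 of these 3 as narrow and 1 as broad. The first domain of X began at 58276 and ended at 61979, which left 58275 bp without a shared domain at the left end. The last ran from 17715609 to 17717767, 1136 bp from the end of the last peak listed on X.

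Replicate 2 drew most X domains wider than replicate 1 did, and joined more of them than on the autosomes together, with chromosome III close to X. Of the X domains, 261 (58.8%, exact 95% interval 54.0 to 63.4%) met a single replicate 2 peak that met no other domain, against 66.3% of the autosomal domains (59.7% on III to 70.9% on IV). In these pairs the median width was 2327 bp in replicate 1 and 2977 bp in replicate 2. Replicate 2 was the wider in 203 pairs (77.8%), against 70.8% of the autosomal pairs, and its edges lay further out by a median of 131 bp on the left and 154 bp on the right. Both edges agreed within 500 bp in 156 of the 261 pairs (59.8%), against 57.0% on the autosomes. Spearman's rho between the widths of a pair was 0.795 over the 261 pairs on X and 0.793 over the 2258 on the autosomes, as a description of peaks from the same 2 libraries.

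Most of the other domains were joined in replicate 2. On X, 171 domains (38.5%, interval 34.0 to 43.2%) shared a replicate 2 peak with a neighbour, against 30.8% on the autosomes, where single chromosomes ran between 27.1% on IV and 37.1% on III. In all, 296 replicate 2 peaks on X met 1 shared domain, 67 met 2, 12 met 3 and 1 met 4. The peak that met 4 ran from 10609495 to 10620948 (11454 bp), and the next by position, with 3 domains each, ran from 2428254 to 2436222 and from 2871464 to 2880747. The reverse was rarer: 24 X domains (5.41%) met 2 or more replicate 2 peaks, beside 6.16% on the autosomes. Wholly covered by replicate 2 were 271 X domains (61.0%, interval 56.3 to 65.6%), beside 50.1% of the autosomal domains, and this share lay between 47.3% and 52.2% on single autosomes. Replicate 2 also listed 781 peaks on X to the 500 of replicate 1. This excess was larger on X than on each autosome, of which IV came nearest, with 966 peaks to 735. The part of this excess in these shares was not tested.

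Gaps between domains were longer at the median on X than on chromosome V, although their densities of domains differed little. The median gap between neighbouring domains, edge to edge, was 18.1 kb on X, against 11.2 kb on V, 7.83 kb on IV, 5.77 kb on II, 4.50 kb on I and 3.91 kb on III. Mean gaps on X and V were nearly equal, at 36.6 and 36.2 kb, so the X gaps were more even in length. Their coefficient of variation was 1.36 on X and 1.53 to 1.65 on single autosomes, and X was the lowest of the 6 chromosomes in all 7 ways of defining the domains that were tried. In the replicate 2 list taken alone the median gaps of X and V nearly met, at 7.45 and 7.30 kb, while in replicate 1 alone they were 16.03 and 8.04 kb. The densities of X and V were not alike in replicate 2 alone, where X had 44.1 peaks per Mb and V 36.9.

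Gaps up to 5 kb made up a smaller share on X than on the autosomes together, and gaps of 20 to 100 kb a larger one. Of the 443 gaps on X, 122 (27.5%, exact 95% interval 23.4 to 32.0%) were at most 2 kb and 36 (8.13%) measured 2 to 5 kb, while on the autosomes 33.6% and 14.1% of 3403 gaps did. Chromosome V was close to X in these classes, with 30.0% and 8.54% of its 527 gaps. Gaps of 20 to 50 kb numbered 94 on X (21.2%) and made up 17.3% on the autosomes and 17.8% on V alone. Those of 50 to 100 kb numbered 76 on X (17.2%) and made up 9.23% on the autosomes and 13.3% on V alone. Gaps over 100 kb numbered 43 on X (9.71%, interval 7.11 to 12.9%) and 55 on V (10.4%, interval 7.96 to 13.4%), and made up 3.67% on the autosomes together. These longest gaps took up 41.3% of the bases between domains on X and 51.1% on V. The interval of each share covers counting error only, and neighbouring gaps are not independent.

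**Figure D2:**
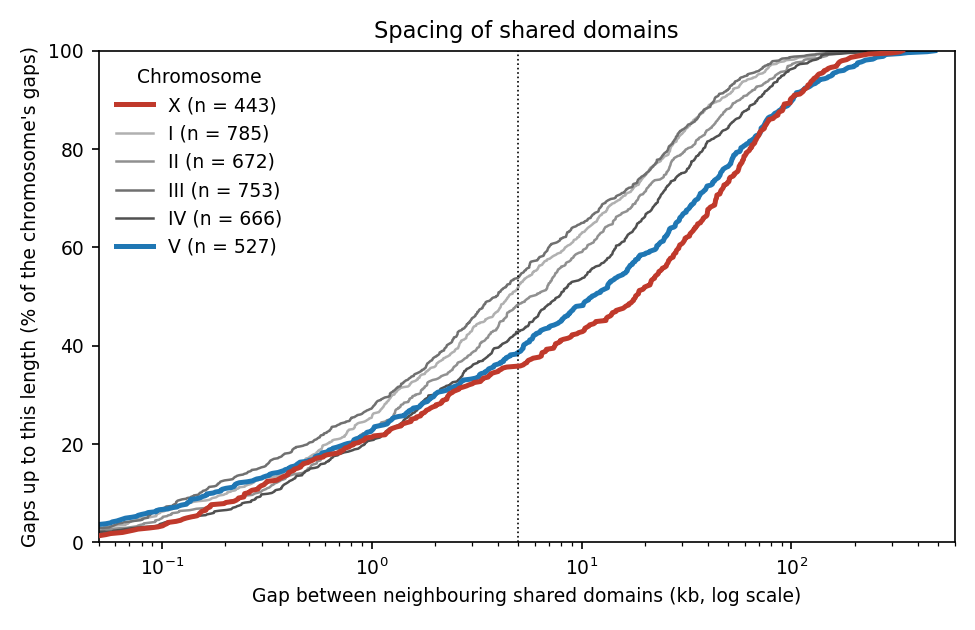
Cumulative share of gaps between neighbouring shared domains (% of the gaps of each chromosome) against gap length (kb, log scale), with X in red, V in blue and the other autosomes in grey; the shortest gaps lie left of the axis, and the dotted line marks the 5 kb limit used for clusters. The X curve is the lowest from 5 to 50 kb, and its median is 18.1 kb against 11.2 kb on V.

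The 5 longest stretches of X without a shared domain were not free of listed peaks. The longest ran from 11605882 to 11943623 (337742 bp) and held 7 peaks of replicate 2 alone, 1 of replicate 1 alone and 18 series-wide peaks. Its replicate 2 peaks covered 3.64% of the stretch. The second, from 1517269 to 1845576 (328308 bp), was the barest in the replicates, with 1 peak of each alone, yet it held 22 series-wide peaks. The replicate 2 peak there covered 1.77% of the stretch. In the third, from 8915027 to 9215400 (300374 bp), replicate 2 alone had 9 peaks that covered 11.0% of the stretch, and replicate 1 had none. The fourth (4973212 to 5205203, 231992 bp) and the fifth (16347097 to 16564136, 217040 bp) held 14 and 12 peaks of replicate 2 alone, over 13.1% and 14.8% of their length. Series-wide peaks covered 2.20 to 5.42% of the bases in these 5 stretches, less than the 8.85% of X as a whole. The stretches were chosen for holding no shared domain, so nothing is read from that difference. The second stretch ended at one of the 10 widest domains, that from 1845577.

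Fewer domains stood in clusters on X than on any autosome. A cluster is a run of at least 3 shared domains in which no gap exceeds 5 kb. On X, 108 domains (24.3%, exact 95% interval 20.4 to 28.6%) stood in 32 clusters, beside 47.4% of the autosomal domains in 393 clusters. V, with nearly the same density, had 34.7% (interval 30.6 to 38.9%), IV 39.7% and the other autosomes 49.3 to 56.0%. In replicate 1 alone the share was 26.6% on X and 38.3% on V. In replicate 2 alone, where X had more peaks per Mb than V, the share was 40.1% on X and 42.1% on V. With the limit set to a fixed part of the mean spacing on each chromosome, it was 34.9% on X and 40.0 to 48.3% on the autosomes. X was below all 5 autosomes in each of the 10 settings run, the main one included, with the narrowest margin in replicate 2 alone.

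**Figure D3:**
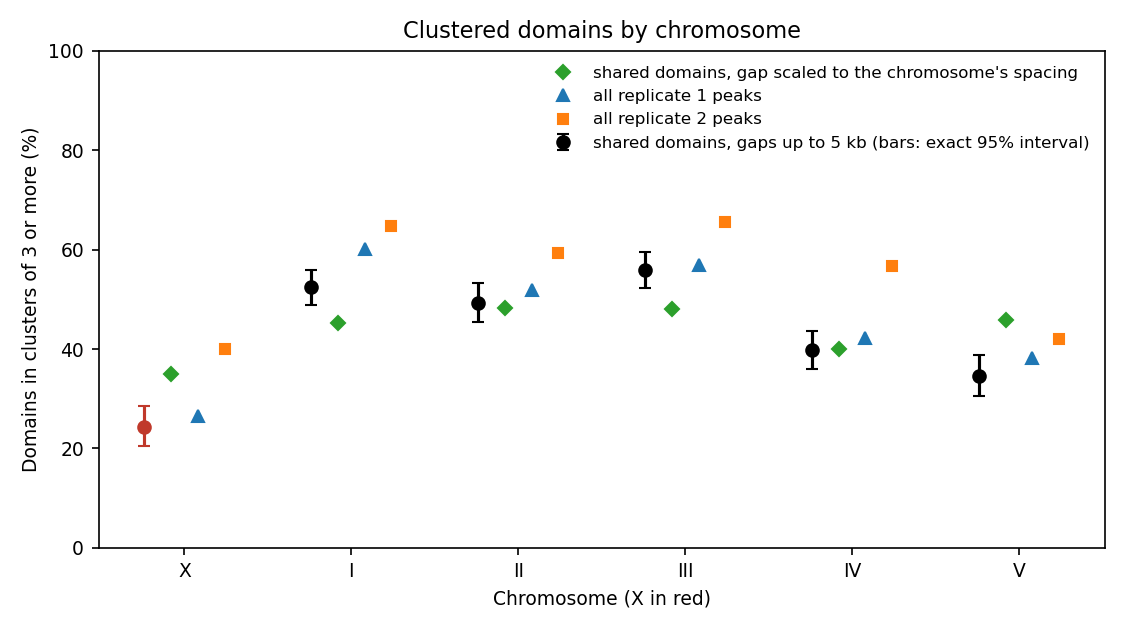
Share of domains in clusters of at least 3 (%) for each chromosome: circles, shared domains with gaps up to 5 kb (red for X, bars give the exact 95% interval for counting error); diamonds, shared domains with the limit scaled to the mean spacing; triangles, all replicate 1 peaks; squares, all replicate 2 peaks. X has the lowest symbol of each kind, at 24.3, 34.9, 26.6 and 40.1%.

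Most clusters on X held 3 domains, and the largest held as many as the largest on V. Of the 32, 24 held 3 domains, 5 held 4, 2 held 5 and 1 held 6, and the longest runs on the autosomes held 6 (V) to 13 (II) domains. They spanned 4438 to 20633 bp with a median of 10252 bp, or 2.08% of X in all. The cluster with 6 domains ran from 10604948 to 10620370, with gaps of 29 to 2313 bp, and domains filled 78.2% of it. Replicate 2 listed 3 peaks over it, 1 of them the peak that met 4 domains. The clusters with 5 domains ran from 1470772 to 1490558, where domains filled 68.4% and a domain of 6747 bp met 11 series-wide peaks, and from 4331936 to 4344598, where no domain exceeded 2206 bp. The next 2, with 4 domains each, ran from 2871939 to 2892294 and from 8282038 to 8297706. In 7 of the 32 clusters all domains met the same single replicate 2 peak, which in the cluster from 4388862 to 4395124 ended at 4395015, inside its last domain. Clustered X domains had a median width of 1849 bp, and the 336 in no cluster a median of 2388 bp. Cluster spans, these widths and the joining in replicate 2 are not given here for autosomal clusters, so none is read as particular to X.

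Shared X domains were sparser in the middle of the chromosome than toward its ends, which replicate 2 alone showed only in part. The central 50% of X held 198 domains (22.3 per Mb) and the outer 25% on either side together 246 (27.8 per Mb), a ratio of 0.80. On the autosomes this ratio was 1.00 (II), 1.03 (IV), 1.13 (I), 1.19 (III) and 1.49 (V). The right central stretch had the fewest domains per Mb on X, at 21.0, and the left central one had 23.7, while the left and right outer stretches had 27.5 and 28.0. The replicates differed in how deep this dip was. In replicate 1 the ratio was 0.76 on X and 0.92 to 1.24 on the autosomes, and in replicate 2 it was 0.96 on X and 1.09 to 1.66 on the autosomes. In replicate 2 the left central stretch had 46.5 peaks per Mb, above the 43.1 of the left outer one and close to the 46.7 of the right outer one. X was below all 5 autosomes in 9 of 10 settings, the main one included. The exception was the rule by which each peak must cover 50% of the other, where X had 0.81 and II 0.78. Among the 9 was a length of X shorter by 37 bp, too small a change to move the ratio.

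**Figure D4:**
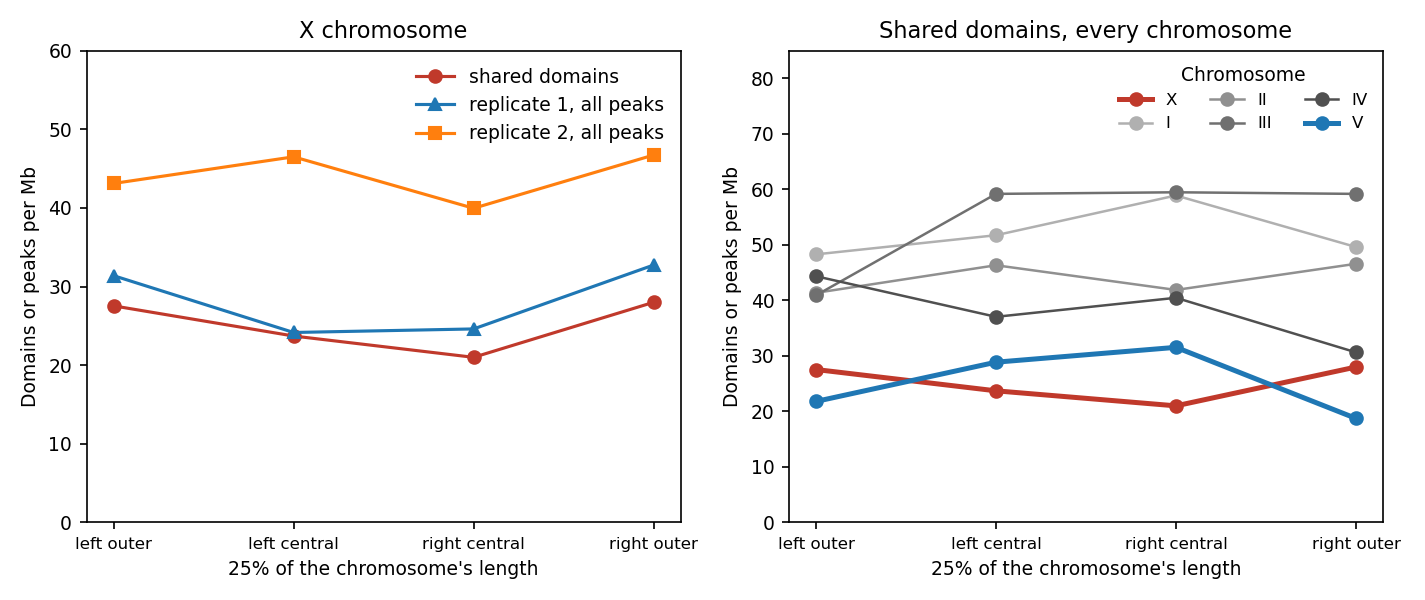
Domains or peaks per Mb (from 0) in each successive 25% of a chromosome's length. Left, X: shared domains (circles), all replicate 1 peaks (triangles) and all replicate 2 peaks (squares). Right, shared domains of every chromosome, X in red and V in blue. Shared X domains dip to 21.0 per Mb in the right central stretch, where V peaks at 31.5.

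Central X domains were somewhat wider, as on I, III and IV, and the dip of the shared domains was shallower in bases. On X the median width was 2393.5 bp in the centre and 2074.5 bp outside it. It was 2418 and 2211 bp on I, 2413 and 2197 bp on III, and 2309 and 1958 bp on IV, and nearly equal on II and V. Domains covered 8.07% and 7.52% of the left and right central stretches of X, against 8.31% and 8.83% of the outer ones. The ratio of centre to outer parts in covered bases was 0.91 on X and 1.05 to 1.38 on the autosomes. The replicates differed in its direction on X, with 0.84 in replicate 1 and 1.03 in replicate 2, where the left central stretch was the most covered of the 4, at 15.6%. Clusters of shared X domains lay mainly outside the centre: 22 of the 32 were there. Of the central X domains 17.2% stood in clusters, against 30.1% of the outer ones. No such split is given here for the autosomes or for either replicate alone, so it is not read as particular to X. Over the 17 complete 1 Mb bins the number of domains ran from 13 (9 to 10 Mb) to 38 (4 to 5 Mb), with a median of 24. The densest bin was 12.2% covered and the emptiest 4.80%, and the bins from 5 to 6 Mb and from 9 to 10 Mb held no clustered domain. The bin from 9 to 10 Mb had 22 replicate 1 peaks and 34 replicate 2 peaks, and 13 of the 22 were shared domains.

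All X domains but 1 met at least 1 peak of the list made for the whole series, whose peaks are mostly shorter than the domains. That list comes from the same experiment and is not independent of the replicate lists, so its overlap with the domains is a description. X domains met 2.54 series-wide peaks on average (SD 1.91 over 444 domains, median 2, highest 12), against 2.44 on the autosomes together and 2.32 (V) to 2.62 (III) on single autosomes. A single series-wide peak was met by 172 X domains (38.7%), against 37.4% of the autosomal ones, and 5 or more by 61 (13.7%, interval 10.7 to 17.3%), against 11.0% of the autosomal ones. Just 1 X domain met none (10084918 to 10086491, 1574 bp), or 0.23% beside 0.088% of the autosomal ones. Replicate 2 had a peak of 3862 bp over it. In bases, series-wide peaks covered 73.7% of the X domains and 73.3 to 76.1% of the domains of single autosomes. With replicate 2 peaks as the domains X was below all 5 autosomes, at 65.9% against 67.0 to 69.9%. The same held in replicate 2 alone, at 53.0% against 59.5 to 62.1%.

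Wider X domains met more series-wide peaks, up to 10 kb, but fewer per kb, and were more fully covered by them. Domains up to 1500 bp met 1.42 on average, those up to 3000 bp 2.13, those up to 5000 bp 3.39 and those up to 10000 bp 4.25, while the 13 over 10 kb met 3.69. Per kb of domain the number fell with width, at 1.15, 1.02, 0.876, 0.593 and 0.304 in these 5 classes. The covered share of bases was 59.7%, 61.2%, 69.0%, 82.8% and 92.8% in the same order. These values by width are not given here for the autosomes, so the pattern is not read as particular to X. Some of the broadest domains met only a few long series-wide peaks. The widest, from 3111412, met 3, of which the longest measured 10777 bp, and that from 12844676 met a single peak of 9104 bp. The 3 domains with most series-wide peaks were wider than the upper quartile of X domains but under 10 kb. These were the domain from 4296914 to 4305982 (9069 bp, 12 peaks, the longest 1046 bp), that from 1477742 to 1484488 (6747 bp, 11 peaks) and that from 12994035 to 13001387 (7353 bp, 10 peaks). In the last of these the replicate 2 peak ended at 12996651 and covered 2617 bp of the domain.

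**Figure D5:**
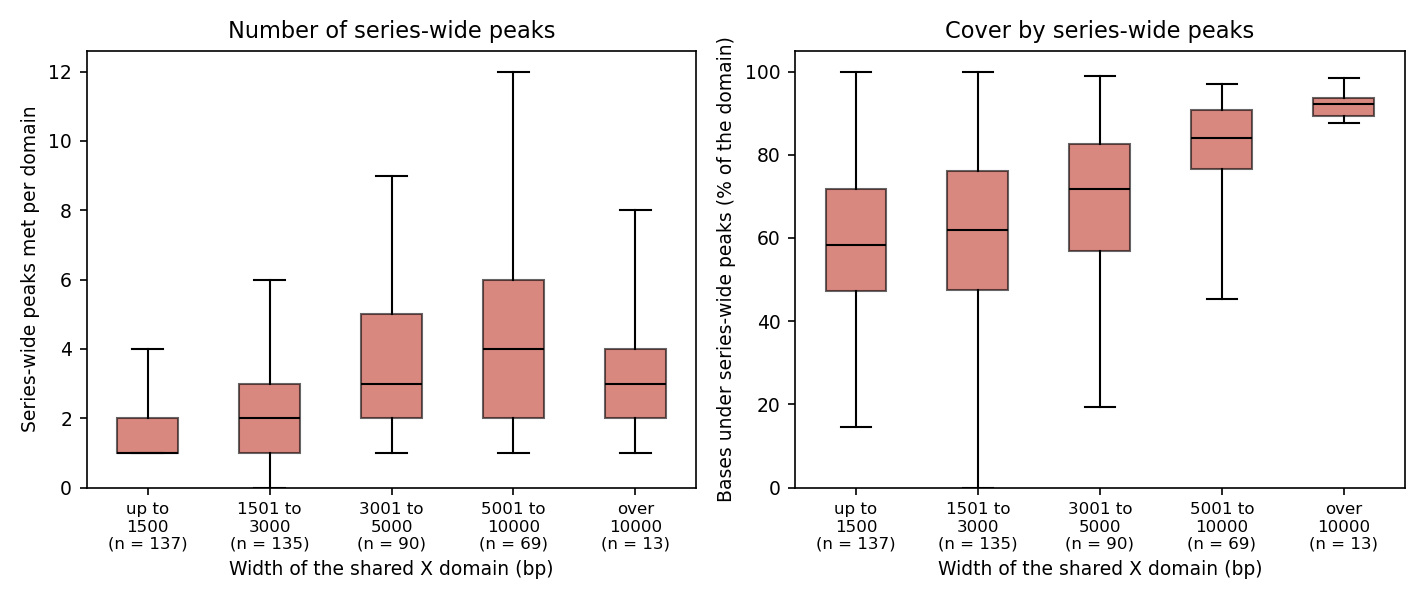
Series-wide peaks met per domain (left) and share of the domain's bases under them (right, %) for the 444 shared X domains by width in replicate 1; boxes span the quartiles with the median as a line, and whiskers reach the lowest and highest domain. The median number is 4 for domains over 5000 and up to 10000 bp and 3 for those over 10000 bp, and the pooled covered share is highest in the widest class, at 92.8%.

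The longest series-wide peak that a domain met had a median width of 999 bp (interquartile range 631 to 2079 bp, 443 domains). Of the 2361 series-wide peaks on X, 1110 (47.0%) met a shared domain, against 51.2% on the autosomes and 48.2% (IV) to 53.7% (III) on single ones. These had a median width of 501.5 bp, and 968 of them lay wholly inside a domain. The 1251 that met no shared domain were shorter, with a median of 278 bp, and 798 of them met a replicate 2 peak. The longest of them measured 14449 bp, more than the 14050 bp of the longest inside a domain, so series-wide peaks outside the shared domains were not all short.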

How the data were processed

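Chromatin was precipitated with the 8WG16 antibody from early embryos, and reads were aligned with BWA to ce10, per the submitters' processing notes. Per the file headers, positions refer to WormBase WS220. The authors deposited a peak list for each precipitated sample (caller MACS, per the file's own entries) and a series-wide list (MACS v2). The sources used here do not state the control, the read filters or how the series-wide list was made. The deposited score column was not used.

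Starts and ends (1-based) were taken into pandas 2.3.3 under Python 3.11.15. Overlaps used numpy 2.4.6, intervals scipy 1.17.1 and figures matplotlib 3.10.9. The scaled cluster limit was 20% of the mean spacing. The 13 mitochondrial series-wide peaks were set aside. Chromosome length was the last listed peak end. Functions were tested on simulated intervals. Shares carry 95% Clopper-Pearson intervals, which are exact for counting error and hold no replicate error.

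Regions named were the 10 widest domains, the 3 narrowest, the first and last, the 5 largest clusters, the 5 longest gaps, the 3 replicate 2 peaks over most domains, the 3 domains with most series-wide peaks, those with none, the 3 nearest each side of the rule, and the extreme 1 Mb bins. The bins without a clustered domain were singled out after their values were seen. The domains, lists and settings were chosen with earlier results of these data known.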

Additional observations from a re-analysis of the deposited data

How the results depend on the processing

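Of 62 recomputed values, 38 moved by less than the spread between the replicate lists (a count, by less than 1.5 times) and 24 by more, and the causes were not tested. That spread was taken from the same single lists, so for their own values the comparison is no separate check. A value that moved by less could still change the place of X. The series-wide cover did so with replicate 2 peaks as the domains, at 65.9%, below all 5 autosomes. With each peak covering 50% of the other there were 286 domains, with a median width of 3024.5 bp, a median gap of 38.4 kb, 8.04% in clusters and 2.63 series-wide peaks each. Merging peaks under 200 bp apart gave a median width of 2416 bp and 2.74 series-wide peaks. Replicate 2 peaks taken as the domains gave 3406.5 bp, a median gap of 25.7 kb, 13.3% in clusters and 3.53 series-wide peaks. A cluster limit of 10 kb gave 36.3% and one scaled to spacing 34.9%. The median X width, which lay among those of the autosomes, was above all 5 by the 50% rule and with replicate 2 peaks as the domains, and below all 5 in replicate 2 alone. The number of series-wide peaks per X domain, also among those of the autosomes, was above all 5 with replicate 2 peaks as the domains and below all 5 in replicate 2 alone. Counting only series-wide peaks wholly inside gave 2.18. In the single lists (replicate 1 and replicate 2 alone), X held 500 and 781 peaks, covering 9.07 and 14.5%, with median widths of 2086 and 2020 bp, median gaps of 16.03 and 7.45 kb, 26.6 and 40.1% in clusters, centre to outer ratios of 0.76 and 0.96, 2.53 and 2.41 series-wide peaks each over 72.2 and 53.0% of the bases, and 0.61 and 0.76 times the autosomal density. A length of X shorter by 37 bp, as in the rule for the domains, left the ratio at 0.80. The last listed peak on X runs past that length, and the setting was added after the data were seen. The score column was not used, so no stricter score limit was tried. No paired analysis was possible because the lists belong to a single group and no test was made.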
